A study of Mus musculus with 4 samples.

Results

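The genes described here move and read calcium inside cerebellar neurons: release channels of the endoplasmic reticulum, pumps and exchangers, calmodulin and its kinases, phospholipase C and protein kinase C, the nitric oxide and cGMP branch, and calcineurin. They were chosen by gene symbol, with 32 genes listed, and each was represented by its probe set with the highest mean over the 4 arrays. A probe set with one of these symbols was found for 27 of the 32, out of 19505 named genes and 22206 probe sets in all, and each of the 27 had a single probe set. Itpr1, Itpr3, Ryr3, Atp2b4 and Gucy1a1 were not named by the annotation table and were not analysed here.

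The tissue was cerebellum from male C57BL/6N mice aged 10 weeks. Mice of the clothianidin group were given the neonicotinoid insecticide clothianidin (CLO) by mouth at 50 mg/kg/day for 4 days while being tested on the rotarod, and mice of the vehicle group were given vehicle over the same days. Each group had 2 arrays, clothianidin replicates 6 and 7 and vehicle replicates 7 and 9. The labels do not say whether an array came from 1 mouse or from pooled mice, so the spread between arrays may be technical.

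Calcium leaves the endoplasmic reticulum through inositol trisphosphate receptors and ryanodine receptors and is returned there by SERCA pumps, while plasma membrane calcium ATPases and sodium-calcium exchangers expel it from the cell. In the Purkinje cell, glutamate released by parallel fibres acts through a metabotropic receptor and phospholipase C to release stored calcium and to activate protein kinase C. Nitric oxide made in neighbouring granule cells and interneurons raises cGMP in the Purkinje cell, where cGMP-dependent protein kinase restrains phosphatases. These signals together weaken the parallel fibre synapse, a process called long-term depression that is linked to motor learning.

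Values are the log2 probe set summaries that the authors deposited, and a difference below is the mean of the clothianidin arrays minus the mean of the vehicle arrays. The array medians were 6.49 to 6.54 over all probe sets. Across probe sets, Pearson's r was 0.989 between the clothianidin arrays, 0.987 between the vehicle arrays and 0.986 to 0.989 between arrays of different groups. The cerebellar label was checked against granule and Purkinje cell markers. Gabra6, a GABA receptor subunit gene of granule cells, was at 17.05 and 17.40 with clothianidin and at 17.41 and 17.09 with vehicle. The Purkinje gene Pcp2 was at 16.68 and 17.18 with clothianidin and at 16.40 and 16.10 with vehicle. The choroid plexus gene Ttr was at 6.38 and 13.96 with clothianidin and at 5.70 and 5.67 with vehicle, so clothianidin replicate 7 stood apart in that gene.

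Each of the 3 measured genes of the nitric oxide and cGMP branch was higher on both clothianidin arrays than on both vehicle arrays. Their median log2 difference was 0.675, and 15.1% of all probe sets were separated in that direction. The 11 other measured partners of the branch, not among the 27 genes, had 5 higher, 5 lower and 1 equal, with a median of 0. The pump gene Atp2b1 showed the largest difference of the 27 genes, 0.85, with nearly equal values on the clothianidin arrays. Most other pump, exchanger and kinase genes were high on clothianidin replicate 6 alone. The means of the clothianidin arrays exceeded those of the vehicle arrays in 22 of the 27 genes and were below them in 5. The median log2 difference was 0.24, against 10689 higher, 11368 lower and a median of -0.01 over all 22206 probe sets. Because 26 of the 27 genes were in the brighter part of the array, the 11106 probe sets whose mean reached the array's median level are the closer background, and 58.4% of these were higher, with a median of 0.065. After a further quantile normalization 18 of the 27 genes were higher and their median was 0.1506. No gene of the 27 passed the limma test at an adjusted p of 0.05, and over all probe sets the share called was 0%, with each of the 27 at an adjusted p of 0.997.

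At an unadjusted limma p under 0.05, 3 of the 27 genes were higher, Atp2b1, Nos1 and Prkg1, and 0 were lower, where 4.23% of all probe sets met that rule. Groups that did not overlap were seen for 11 of the 27 genes, against 30.6% of all probe sets, and in 10 of these the clothianidin arrays were higher, against 15.1% of all probe sets and 20.9% of those 11106 brighter ones. Differences of at least 1.5-fold with no overlap were seen for 5 genes, Ryr2, Atp2b1, Plcb3, Nos1 and Prkg1, all higher, against 7.61% of all probe sets in either direction and 4.04% in the higher direction. Among the 11106 brighter probe sets, 6.26% were at least 1.5-fold higher with no overlap. Without clothianidin replicate 6 the count of 5 became 1, Atp2b1, while 13.2% of all probe sets met the rule in either direction. Without clothianidin replicate 7 it became 10, while 17.4% of all probe sets met it. After a further quantile normalization it became 3, Atp2b1, Nos1 and Prkg1, while 6.66% of all probe sets met it.

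**Figure D1:**
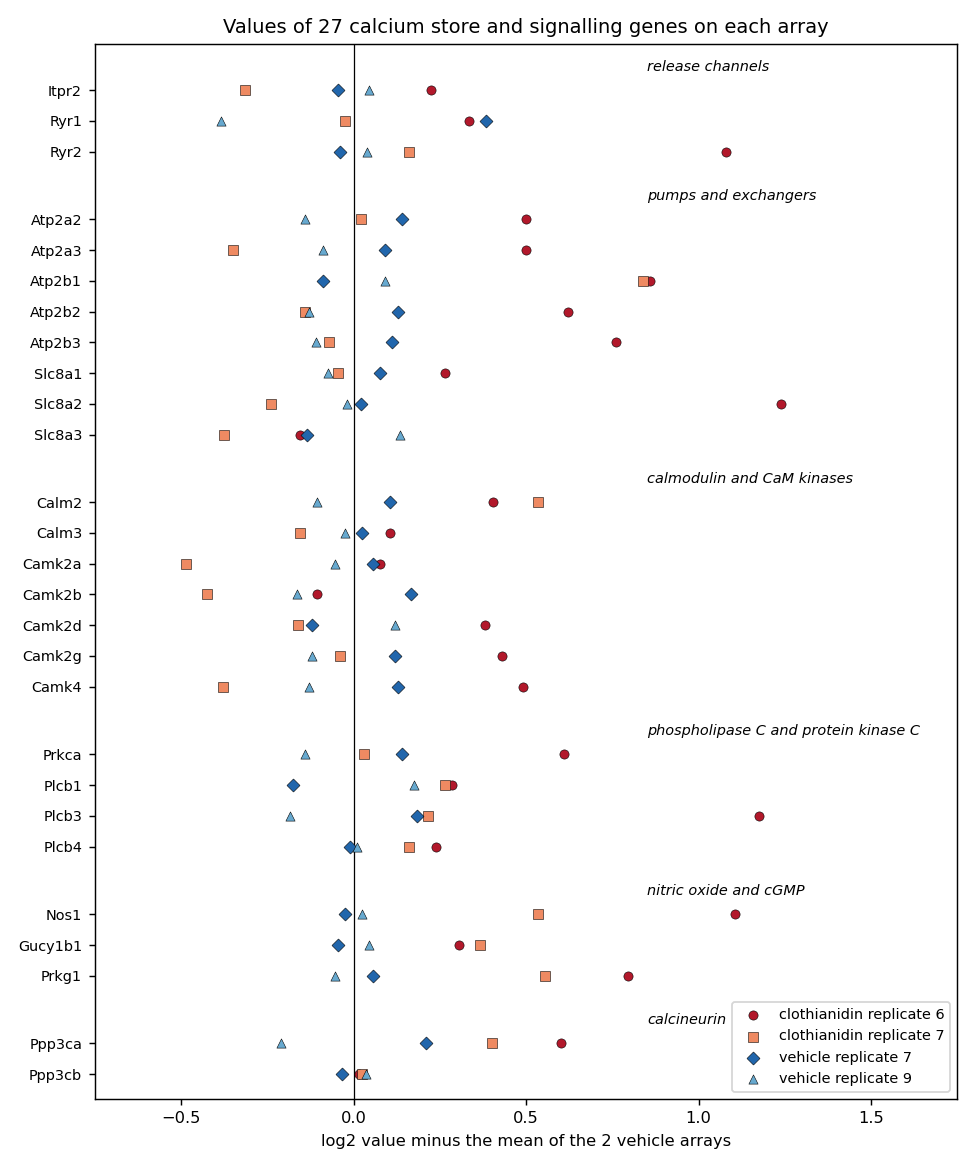
Each row is a gene and each point 1 array, drawn as its log2 value minus the mean of the 2 vehicle arrays; the vertical line at 0 is that mean. Clothianidin replicate 6 is the highest point for 21 of the 27 genes, while clothianidin replicate 7 lies below the vehicle mean for 14 of them.

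Nos1 encodes the neuronal nitric oxide synthase, which calcium-bound calmodulin activates. It was at 12.54 and 11.97 with clothianidin and at 11.41 and 11.46 with vehicle. Both clothianidin arrays were above both vehicle arrays, with a gap of 0.51 between the groups. The log2 difference of 0.82 had a standard error of 0.30 and a 95% interval of 0.13 to 1.51 (limma unadjusted p = 0.0262, adjusted p = 0.997).

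Prkg1, the gene of cGMP-dependent protein kinase type I, which is abundant in Purkinje cells, was at 9.27 and 9.03 with clothianidin and at 8.53 and 8.42 with vehicle. The groups were 0.50 apart at their nearest values. Its log2 difference was 0.675, with a standard error of 0.27 and a 95% interval of 0.05 to 1.30 (limma unadjusted p = 0.0386, adjusted p = 0.997).

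Gucy1b1 encodes the beta subunit that every common form of the nitric oxide receptor, soluble guanylate cyclase, needs. It was at 12.01 and 12.07 with clothianidin and at 11.66 and 11.75 with vehicle, and the groups did not overlap. Its log2 difference of 0.335 was smaller than those of Nos1 and Prkg1 and its 95% interval, -0.28 to 0.95, included 0.

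Because their groups did not overlap, the 3 genes of this branch had to keep a positive difference whichever array was left out. Without clothianidin replicate 6 the differences were 0.535 for Nos1, 0.365 for Gucy1b1 and 0.555 for Prkg1. The median of the branch lay between 0.535 and 0.795 over the 4 fits with 1 array left out.

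**Figure D2:**
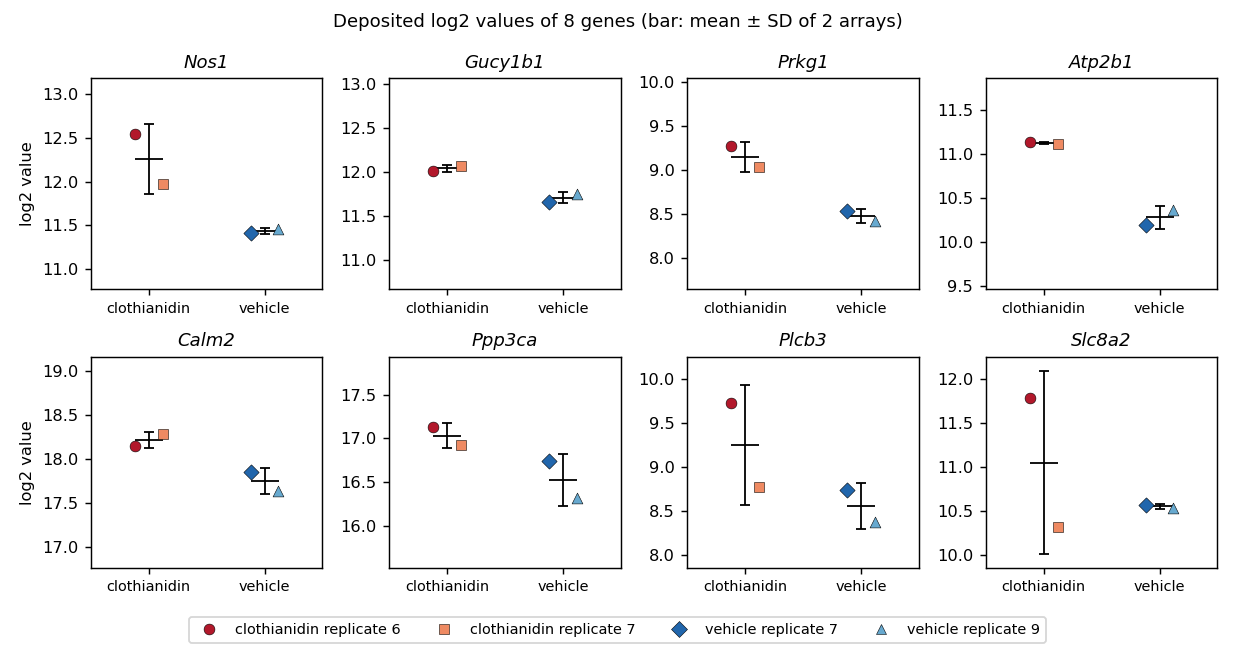
Deposited log2 values of 8 genes on each array, with the clothianidin arrays left of the vehicle arrays and bars at the mean ± SD of 2 arrays; every panel spans the same height in log2 units. Nos1, Gucy1b1, Prkg1, Atp2b1, Calm2 and Ppp3ca are higher on both clothianidin arrays, Plcb3 is separated by 0.03, and Slc8a2 is high on clothianidin replicate 6 only.

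The start regions of these 3 genes and of Atp2b1 are shown because these 4 genes include every gene of the 27 that reached an unadjusted p under 0.05 and the whole measured nitric oxide branch. Each line gives 300 bases of the coding strand, read in the direction of transcription, 250 before and 50 after the annotated start. The starts are from RefSeq on build GRCm38.p6, and where a gene had several starts the most upstream is shown. Capitals mark TGACG on either strand, the half-site of the cAMP response element, to which the calcium-regulated factor CREB binds.
Nos1, chr5:117866589-117866888, plus strand: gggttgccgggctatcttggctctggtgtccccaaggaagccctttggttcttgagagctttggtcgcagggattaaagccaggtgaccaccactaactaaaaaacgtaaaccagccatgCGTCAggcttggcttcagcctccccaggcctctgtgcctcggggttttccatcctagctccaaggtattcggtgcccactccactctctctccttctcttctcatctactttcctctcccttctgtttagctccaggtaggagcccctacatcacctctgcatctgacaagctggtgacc
Gucy1b1, chr3:82074662-82074961, minus strand: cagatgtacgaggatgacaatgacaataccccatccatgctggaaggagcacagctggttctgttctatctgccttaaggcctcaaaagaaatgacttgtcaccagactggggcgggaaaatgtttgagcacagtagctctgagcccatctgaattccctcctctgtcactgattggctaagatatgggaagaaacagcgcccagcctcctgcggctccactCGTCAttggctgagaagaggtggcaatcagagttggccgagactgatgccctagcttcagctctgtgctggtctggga
Prkg1, chr19:31764984-31765283, minus strand: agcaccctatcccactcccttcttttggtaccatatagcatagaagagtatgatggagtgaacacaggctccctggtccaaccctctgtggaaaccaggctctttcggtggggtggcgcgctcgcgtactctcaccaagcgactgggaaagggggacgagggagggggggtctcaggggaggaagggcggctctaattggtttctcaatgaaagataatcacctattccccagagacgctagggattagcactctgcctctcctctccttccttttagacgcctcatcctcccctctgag
Atp2b1, chr10:98914392-98914691, plus strand: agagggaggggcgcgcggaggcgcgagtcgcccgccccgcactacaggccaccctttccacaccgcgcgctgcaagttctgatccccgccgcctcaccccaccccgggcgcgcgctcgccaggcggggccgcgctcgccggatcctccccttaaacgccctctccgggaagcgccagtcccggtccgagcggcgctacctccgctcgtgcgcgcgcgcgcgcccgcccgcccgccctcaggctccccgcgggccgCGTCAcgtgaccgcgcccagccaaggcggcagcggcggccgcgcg

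The half-site began 130 bases before the start in Nos1, 28 bases before it in Gucy1b1 and at position 6 after it in Atp2b1, where it overlapped an E-box, CACGTG. The Prkg1 window held none. Among the 27 genes, 20 had a window, and 6 of these 20 held TGACG in the most upstream one. Of all 25 windows of these genes 6 held it, against 20.8% of all 32851 windows. The full element TGACGTCA was in 0 of the 20, against 1.79% of all windows. The windows differed in base composition, with 54.7% G and C in Nos1, 52.3% in Gucy1b1, 55.3% in Prkg1 and 79.3% in Atp2b1.

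Among the pumps of the plasma membrane, Atp2b1, the widely expressed form, was at 11.14 and 11.12 with clothianidin and at 10.19 and 10.37 with vehicle. The gap between the groups, 0.75, was the widest of the 27 genes. The log2 difference of 0.85, a 1.80-fold ratio, had a standard error of 0.27 and a 95% interval of 0.23 to 1.47 (limma unadjusted p = 0.0134, adjusted p = 0.997). By unadjusted p it was number 184 of 22206 probe sets. It lay between 0.76 and 0.94 with any 1 array left out.

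Its paralogs did not separate. Atp2b2, the main plasma membrane pump of Purkinje cells, whose loss causes ataxia in mice, was at 16.60 and 15.84 with clothianidin and at 16.11 and 15.85 with vehicle. The neuronal form Atp2b3 was at 12.88 and 12.05 with clothianidin and at 12.23 and 12.01 with vehicle. In both genes clothianidin replicate 6 was the highest array and clothianidin replicate 7 lay at the level of the vehicle arrays. Their log2 differences were 0.24 (95% interval -0.53 to 1.01) and 0.345 (95% interval -0.44 to 1.13).

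The SERCA genes gave the same picture. Atp2a2, the general SERCA pump of neurons, was at 17.30 and 16.82 with clothianidin and at 16.94 and 16.66 with vehicle, a log2 difference of 0.26. Atp2a3, a SERCA form also found in Purkinje cells, was at 11.63 and 10.78 with clothianidin and at 11.22 and 11.04 with vehicle, a log2 difference of 0.075. For Atp2a3 the clothianidin arrays enclosed both vehicle values.

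Of the sodium-calcium exchangers, Slc8a2, the brain form, had the widest gap between the clothianidin arrays of any of the 27 genes, 1.48. It was at 11.79 and 10.31 with clothianidin and at 10.57 and 10.53 with vehicle. The vehicle arrays were nearly equal and the clothianidin arrays lay on either side of them, so the log2 difference of 0.50 became -0.24 without clothianidin replicate 6.

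Slc8a1, the widespread exchanger, was at 11.12 and 10.81 with clothianidin and at 10.93 and 10.78 with vehicle. Slc8a3, the exchanger of brain and skeletal muscle, was at 9.97 and 9.75 with clothianidin and at 9.99 and 10.26 with vehicle. It was the only gene of the 27 whose clothianidin arrays were both below both vehicle arrays, by 0.02. The log2 differences were 0.11 for Slc8a1 and -0.265 for Slc8a3, and both 95% intervals included 0. Over the 8 measured pump and exchanger genes, 7 were higher and 1 lower, with a median of 0.25 that became -0.105 without clothianidin replicate 6.

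**Figure D3:**
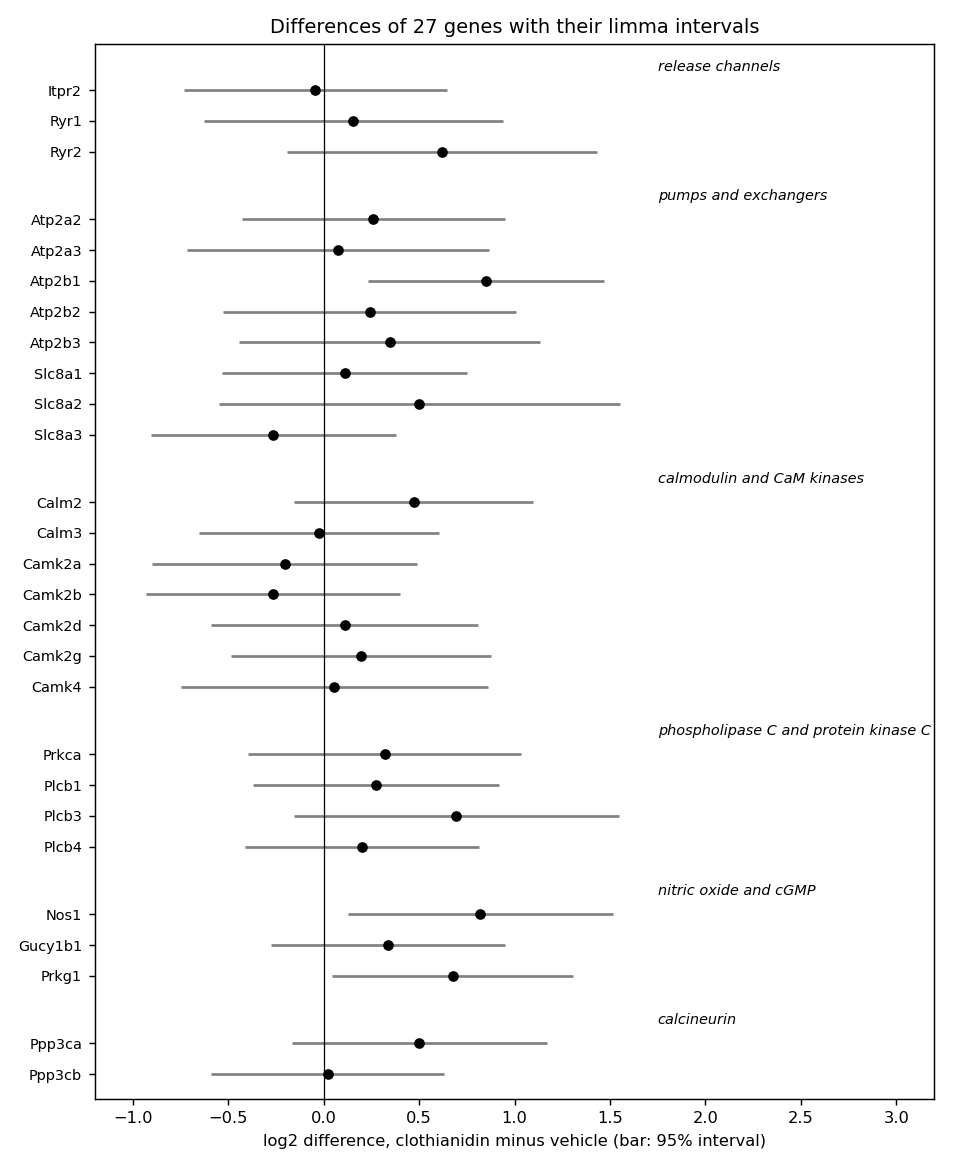
Points are log2 differences, clothianidin minus vehicle, for the 27 genes by role, and bars are 95% intervals from limma. The intervals of Atp2b1, Nos1 and Prkg1 lie above 0 before any adjustment for the number of probe sets, and the other 24 include 0.

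Ryr2, the ryanodine receptor most abundant in brain, was at 9.94 and 9.02 with clothianidin and at 8.82 and 8.90 with vehicle. Both clothianidin arrays were above both vehicle arrays, clothianidin replicate 7 by 0.12. The log2 difference of 0.62 (95% interval -0.19 to 1.43) became 0.16 without clothianidin replicate 6.

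Ryr1, the skeletal muscle form that Purkinje cells also express, was at 5.69 and 5.33 with clothianidin and at 5.74 and 4.97 with vehicle. Its mean did not exceed 5.53, the 95th percentile of 1091 olfactory receptor probe sets, so it was not shown to be above background. Itpr2, an inositol trisphosphate receptor prominent in astrocytes, was at 9.35 and 8.81 with clothianidin and at 9.08 and 9.17 with vehicle. The groups overlapped for both genes, with log2 differences of 0.155 for Ryr1 and -0.045 for Itpr2. With Ryr1 left out, the median of the release channels rests on Ryr2 and Itpr2 and was 0.2875, and it was -0.0775 without clothianidin replicate 6.

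Calm2 and Calm3 both encode calmodulin, with the same protein sequence. Calm2 was at 18.15 and 18.28 with clothianidin and at 17.85 and 17.64 with vehicle, with no overlap and a log2 difference of 0.47 (95% interval -0.16 to 1.10). Calm3 was at 17.91 and 17.65 with clothianidin and at 17.83 and 17.78 with vehicle, a log2 difference of -0.025 (95% interval -0.65 to 0.60). The intervals overlapped, and the difference between the paralogs was not tested. Calm2 was 1 of 3 genes, with Gucy1b1 and Ppp3cb, in which clothianidin replicate 7 exceeded clothianidin replicate 6.

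The calmodulin-dependent kinase genes did not separate the groups. Camk2b, the main CaMKII subunit of the cerebellum, was at 17.53 and 17.21 with clothianidin and at 17.80 and 17.47 with vehicle, a log2 difference of -0.265. Camk2a, which in the cerebellum marks Purkinje cells, was at 12.80 and 12.24 with clothianidin and at 12.78 and 12.67 with vehicle, a log2 difference of -0.205. Both stayed lower when clothianidin replicate 6 was left out, at -0.425 and -0.485, while Camk2a was at 0.075 without clothianidin replicate 7.

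Camk2d, a broadly expressed CaMKII subunit, was at 16.10 and 15.56 with clothianidin and at 15.60 and 15.84 with vehicle. Camk2g, another such subunit, was at 12.53 and 12.06 with clothianidin and at 12.22 and 11.98 with vehicle. Camk4, a nuclear kinase of granule cells that phosphorylates CREB, was at 13.53 and 12.66 with clothianidin and at 13.17 and 12.91 with vehicle. The groups overlapped for all 3, with log2 differences of 0.11, 0.195 and 0.055. Of the 7 calmodulin and kinase genes 4 were higher and 3 lower, with a median of 0.055, which was -0.16 without clothianidin replicate 6 and -0.05 without vehicle replicate 9.

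All 4 genes of phospholipase C and protein kinase C were higher by their means, with a median of 0.2975. Plcb4, the phospholipase C of most Purkinje cells, was at 15.75 and 15.67 with clothianidin and at 15.50 and 15.52 with vehicle. Plcb1, a form best known from the forebrain, was at 12.53 and 12.51 with clothianidin and at 12.07 and 12.42 with vehicle. Neither gene overlapped between groups, and the log2 differences were 0.20 (95% interval -0.41 to 0.81) and 0.275 (95% interval -0.37 to 0.92).

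Plcb3, which is found in Purkinje cells with little Plcb4, was at 9.73 and 8.77 with clothianidin and at 8.74 and 8.37 with vehicle. The groups were 0.03 apart, and the log2 difference of 0.695 (95% interval -0.16 to 1.55) became 0.215 without clothianidin replicate 6. Prkca, a protein kinase C gene that acts in long-term depression, was at 11.27 and 10.69 with clothianidin and at 10.80 and 10.52 with vehicle, with overlap and a log2 difference of 0.32. The median of the 4 genes lay between 0.1875 and 0.4475 with any 1 array left out.

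Calcineurin, the calcium-dependent phosphatase, has a catalytic subunit encoded in brain by Ppp3ca or Ppp3cb. Ppp3ca was at 17.13 and 16.93 with clothianidin and at 16.74 and 16.32 with vehicle, with no overlap and a log2 difference of 0.50 (95% interval -0.17 to 1.17). Ppp3cb was at 16.17 and 16.18 with clothianidin and at 16.12 and 16.19 with vehicle, a log2 difference of 0.02 (95% interval -0.59 to 0.63). The Ppp3cb values were within 0.07 of each other on all 4 arrays.

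Clothianidin replicate 6 gave the highest value for most of these genes. It was above both vehicle arrays in 23 of the 27, against 32.71% of all probe sets and 43.43% of the brighter ones. Clothianidin replicate 7 was above both in 10 of the 27, against 29.96% of all probe sets and 34.92% of the brighter ones. Clothianidin replicate 6 was above clothianidin replicate 7 in 24 of the 27 genes, with a median gap of 0.47. It was above in 50.5% of all probe sets, with a median gap of 0.01. Among the brighter probe sets it was above in 57.4%, with a median gap of 0.09. In 17 of the 27 genes the gap between the clothianidin arrays was larger than the difference between the groups. The share of all probe sets with the larger gap was not counted. Over all probe sets the median size of that gap was 0.31 and the median size of the difference 0.215. Without clothianidin replicate 6, 13 of the 27 genes were higher and the median was -0.025, and 9 genes turned sign. Turns of sign in that fit were not counted over all probe sets. Without clothianidin replicate 7 the median was 0.43, and without vehicle replicates 7 and 9 in turn it was 0.315 and 0.18.

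Of the 27 genes, 14 kept their sign in all 4 fits with 1 array left out, 12 higher and 2 lower, a share of 51.9% against 44.4% of all probe sets. The 11 genes whose groups did not overlap, against 30.6% of all probe sets, had to keep it. The 12 higher were Ryr2, Atp2a2, Atp2b1, Calm2, Prkca, Plcb1, Plcb3, Plcb4, Nos1, Gucy1b1, Prkg1 and Ppp3ca, and the 2 lower were Slc8a3 and Camk2b. Some of these differences were close to 0 in 1 fit, and without clothianidin replicate 6 Atp2a2 was at 0.02 and Prkca at 0.03. Atp2b1, Calm2, Nos1 and Prkg1 were the 4 genes with a difference of at least 0.3 in each of the 4 fits. Gucy1b1 and Ppp3ca only just missed this cut, each with a smallest difference of 0.29. The share of all probe sets meeting this rule was not counted.

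**Figure D4:**
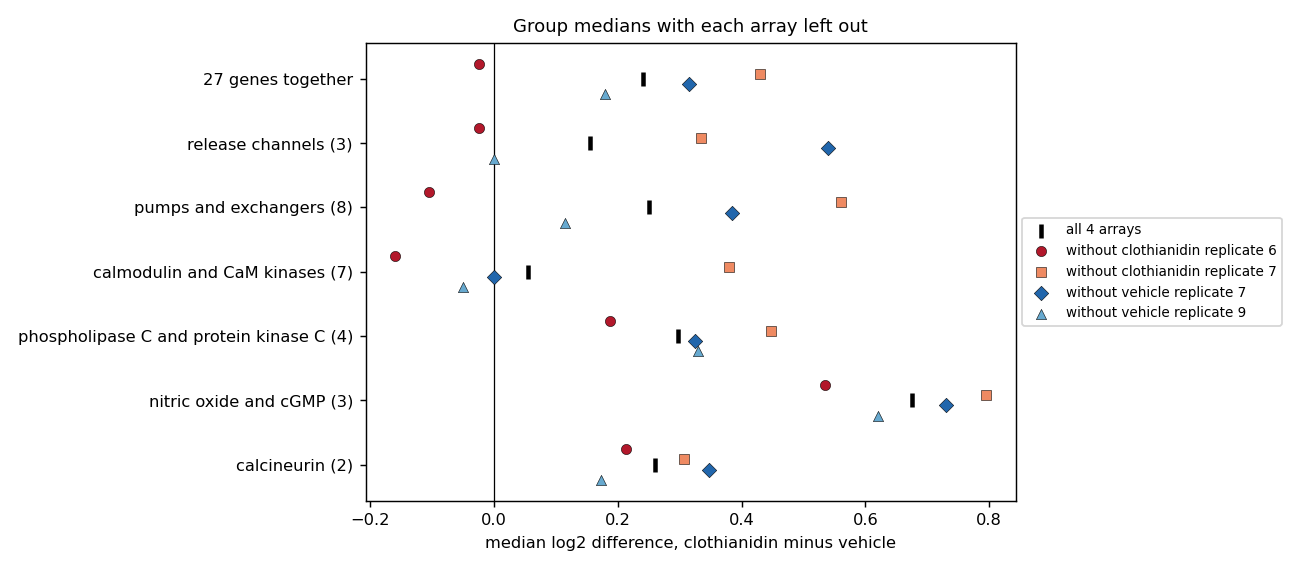
Median log2 differences, clothianidin minus vehicle, of the 27 genes and of each role group (number of genes in brackets), with all arrays (black bar) and with each array left out (coloured points). Without clothianidin replicate 6 the medians of the release channels, the pumps and exchangers and the calmodulin group are below 0 (for the release channels the median is the value of Ryr1, which was not shown to be above background), while those of the phospholipase C, nitric oxide and calcineurin groups stay at 0.1875, 0.535 and 0.2125.

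By their medians, markers of some cell types moved with the same array. Granule cell markers, with 11 of 12 measured, had a median deviation from each gene's 4-array mean of 0.505 and -0.2025 on clothianidin replicates 6 and 7, and of -0.0675 and -0.2375 on vehicle replicates 7 and 9. The 27 calcium genes deviated in the same way, by 0.3325 and -0.1325 with clothianidin and by -0.04 and -0.2175 with vehicle. The summed log2 level of the granule markers was 159.82 to 166.01 with clothianidin and 158.23 to 160.40 with vehicle. Of the 11 markers, 8 were higher. The lower ones were Gabra6, Cbln1 and Cbln3, with log2 differences of -0.025, -0.155 and -0.24. These were all highest on vehicle replicate 7, and Gabra6 was lowest on clothianidin replicate 6. The part of cell makeup in the calcium gene values was not tested, and in whole tissue fewer cells of a type and less RNA per cell cannot be told apart.

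Purkinje markers, with 14 of 15 measured and 10 of these higher, had summed log2 levels of 193.62 to 193.92 with clothianidin and 190.42 to 191.63 with vehicle. The largest log2 differences were in Pcp2, Pcp4 and Calb1, at 0.68, 0.675 and 0.66. The 4 lower genes were Slc1a6, Foxp2, Lhx5 and Aldoc. Groups did not overlap for 5 of the 14, 35.7% against 30.6% of all probe sets. Interneuron markers, 8 of 8 measured, summed to 92.22 to 94.18 with clothianidin and 92.22 to 92.59 with vehicle. Like the granule markers, they were high on clothianidin replicate 6 by their median. Their median deviations were 0.2437 and -0.2112 on clothianidin replicates 6 and 7, and -0.01 and -0.045 on vehicle replicates 7 and 9. Oligodendrocyte markers, 10 of 11 measured, were lower in all 10, with sums of 120.89 to 121.75 with clothianidin and 123.06 to 125.51 with vehicle. Groups did not overlap for 2 of the 10, 20% against 30.6% of all probe sets. The median deviations of these markers were -0.0475 and -0.1975 on clothianidin replicates 6 and 7, and 0.2125 and -0.0475 on vehicle replicates 7 and 9. Choroid plexus markers, 8 of 9 measured, summed to 49.82 on clothianidin replicate 6 and 60.37 on clothianidin replicate 7, against 47.41 to 48.99 with vehicle. The largest gaps, clothianidin replicate 6 minus replicate 7, were -7.58 in Ttr and -1.95 in Kcnj13. In 3 of the 8, Otx2, Clic6 and Aqp1, clothianidin replicate 7 was the lower one. Kl and Aqp1 were below 5.53, the olfactory receptor 95th percentile, on every array. On this scale no marker is at 0, so absence cannot be read from it.

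**Figure D5:**
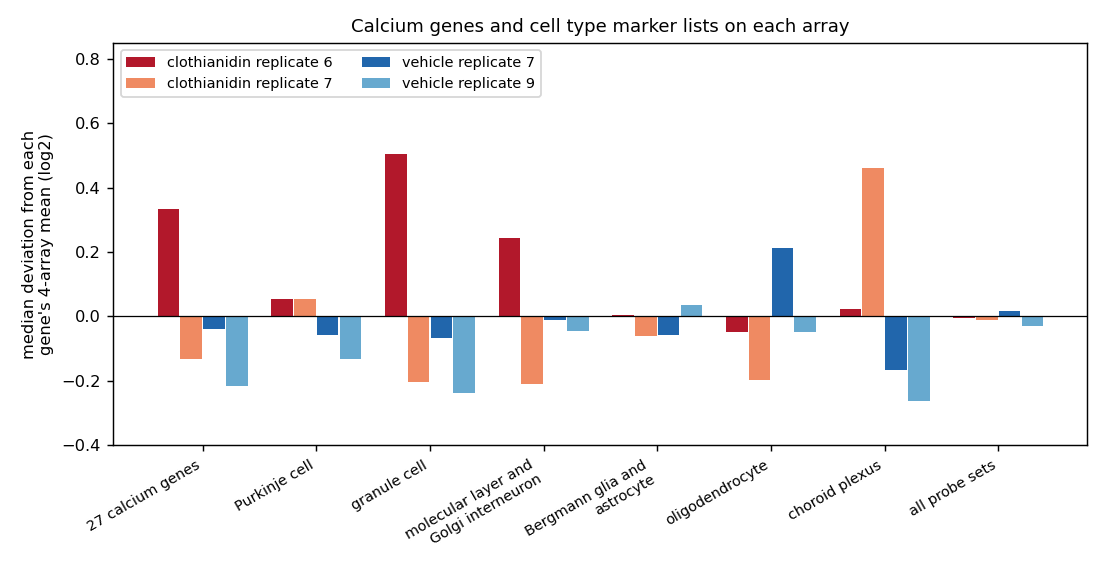
Bars are the median deviation of each list's genes from their 4-array means, in log2 units, for each array, with the clothianidin arrays left of the vehicle arrays. The 27 calcium genes, the granule cell markers and the interneuron markers are highest on clothianidin replicate 6, at 0.3325, 0.505 and 0.2437. All probe sets together stay within 0.03 of 0.

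Other genes of calcium handling and long-term depression were read from a list of 129, of which 116 were measured. Of these 64 were higher, 51 lower and 1 equal, with a median log2 difference of 0.0625, and 0 passed the adjusted limma test. The median was -0.04, with 53 higher, without clothianidin replicate 6 and -0.0025 without vehicle replicate 9. Differences of at least 1.5-fold with no overlap were seen for 6 higher and 3 lower genes, 7.76% of the 116, which is near the 7.61% of all probe sets, so the genes are named as a description only. Dgkz, a diacylglycerol kinase gene that ends the activation of protein kinase C, was at 10.09 and 9.54 with clothianidin and at 9.00 and 8.51 with vehicle, a log2 difference of 1.06. Fkbp1a, whose product binds ryanodine receptors, was at 13.38 and 13.28 with clothianidin and at 12.61 and 12.44 with vehicle, a log2 difference of 0.805.

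The calcium buffer gene Calb1 was at 16.51 and 16.30 with clothianidin and at 15.74 and 15.75 with vehicle, and the calmodulin regulator gene Pcp4 at 16.54 and 17.31 with clothianidin and at 16.35 and 16.15 with vehicle. Both are Purkinje markers, and their log2 differences were 0.66 and 0.675. Micu3, a regulator of mitochondrial calcium uptake in neurons, had a log2 difference of 0.59, and the cGMP phosphodiesterase gene Pde2a one of -0.665. The other 3 of these 9 genes were dim. For the SERCA inhibitor gene Pln and the inducible nitric oxide synthase gene Nos2 all 4 arrays were below 5.53, the 95th percentile of the olfactory receptor probe sets, so neither was shown to be above background and no difference is given. The metabotropic receptor gene Grm5 was at 5.31 and 5.36 with clothianidin, also below 5.53, and at 6.79 and 5.78 with vehicle, so its lower side is not shown to be above background.

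The 11 measured partners of the nitric oxide and cGMP branch that were not among the 27 genes had 5 higher, 5 lower and 1 equal, with a median of 0, which lay between -0.24 and 0.11 with 1 array left out. The receptors and G proteins upstream of the store had 3 of 9 higher and a median of -0.15, which turned to 0.085 without clothianidin replicate 7 and to 0.06 without vehicle replicate 7, with 5 of 9 higher in both. The regulators of release and of inositol trisphosphate had 15 of 20 higher and a median of 0.1475, which was 0.0375 without clothianidin replicate 6. The other phosphatase genes and their regulators had 6 of 15 higher and a median of -0.075, which turned to 0.02, 0.14 and 0.03 without clothianidin replicate 7, vehicle replicate 7 and vehicle replicate 9 in turn. The other kinase and phospholipase genes had 6 of 14 higher and a median of -0.0475. It was 0.1775 without clothianidin replicate 7 and 0.06 without vehicle replicate 7. The remaining lists had medians of 0.1275 for store filling and entry, 0.065 for mitochondrial and other transport, 0.05 for buffers and 0.07 for AMPA receptor internalisation.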

How the data were processed

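RNA from 4 cerebellum samples was hybridised to Affymetrix arrays, 1 per sample. Per the submitters' processing notes, the authors used RMA to make the deposited log2 values; the RMA version is not given in the sources used here. Base 2 was assumed, since no source states the base. Signal over background is unknown, and the number of arrays limits the precision.

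Columns were matched to samples by name and grouped by title. Gene names came from the platform annotation, updated through RefSeq gene identifiers, by which 0 symbols changed; 2634 of 22206 probe sets were not named. The test was limma 3.58.1 under R 4.3.3 (lmFit and eBayes over all probe sets, Benjamini-Hochberg adjustment, threshold 0.05), where the prior SD was 0.306 on 5.96 degrees of freedom, beside 2 residual ones. The procedure was tested on simulated data. All measured genes of the set are named; of other calcium genes, those with unadjusted p under 0.05 or at least 1.5-fold apart with no overlap; of markers, those needed to check the tissue. The genes, lists and tests were chosen with earlier results of these data known. Alternatives were median centring, quantile normalization, a filter on level, a trended prior, no moderation, a 2-fold threshold, the mean over a gene's probe sets, and leaving out each array.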

Additional observations from a re-analysis of the deposited data

How the results depend on the processing

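No paired analysis was possible because the groups shared only 1 replicate number. With all arrays, 0 probe sets passed limma, and 8 passed without moderation. With 1 array left out the count was 0 to 1; the 1 call, without clothianidin replicate 6, was Ttr, not among the 27 genes. Of the 27, 5 were at least 1.5-fold apart with no overlap, 3 after a further quantile normalization, 0 at 2-fold, and 1 to 10 with 1 array left out, where 13.16% to 18.55% of all probe sets met the rule. Their median ranged from -0.025 to 0.43 and the number higher from 13 to 25. Group medians ranged from -0.025 to 0.54 for release channels (the value of Ryr1, not shown to be above background, in both; without Ryr1, a choice made after seeing the data, -0.0775 to 0.6525), -0.105 to 0.56 for pumps and exchangers, -0.16 to 0.38 for calmodulin and its kinases, and 0.535 to 0.795 for the nitric oxide branch. After quantile normalization the median of the 27 was 0.1506 with 18 higher, that of the pumps and exchangers 0.145 and that of calcineurin 0.1684, and the calmodulin and kinase median was -0.0344, with Atp2a3 at -0.0169, Camk2d at -0.02, Camk4 at -0.0344 and Ppp3cb at -0.0769. Genes that turned sign with 1 array left out ranged from -0.315 to 0.225 for Itpr2, -0.23 to 0.54 for Ryr1, -0.35 to 0.50 for Atp2a3, -0.14 to 0.62 for Atp2b2, -0.07 to 0.76 for Atp2b3, -0.045 to 0.265 for Slc8a1, -0.24 to 1.24 for Slc8a2, -0.155 to 0.105 for Calm3, -0.485 to 0.075 for Camk2a, -0.16 to 0.38 for Camk2d, -0.04 to 0.43 for Camk2g, -0.38 to 0.49 for Camk4 and -0.015 to 0.055 for Ppp3cb. The cause was not tested. Median centring, the level filter and the trended prior turned no direction and no call among these results. Centring shifts every difference by the same amount, and the level filter and the trended prior leave each gene's difference as it is. Directions could therefore hardly turn in these alternatives. Each of the 27 genes had a single probe set, so the mean over probe sets could change nothing for them. In each fit with 1 array left out, the lone array of a group is assumed to vary like the other group.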

Other observations

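Other motifs were read in the same start regions as a description. The GC box, GGGCGG on either strand, was in the most upstream window of 17 of the 20 genes with a window. It was in 20 of all 25 windows of these genes, against 35.7% of all windows. The most upstream windows held 50.7% to 84.0% G and C. Base composition was not matched to that of all windows, so no enrichment can be read from these counts. TGGAAA, a core recognised by the calcineurin-dependent NFAT factors, was in 5 of the 20. It was in 6 of the 25, against 21.4% of all windows.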
